A study of Mus musculus with 6 samples.

Results

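TFIIH is a general transcription factor of many subunits, and its 10 genes were followed in mouse small intestine after ischemia/reperfusion (I/R). The subunits were taken by name from textbook knowledge of the complex, Ercc3, Ercc2, Gtf2h1, Gtf2h2, Gtf2h3, Gtf2h4, Gtf2h5, Cdk7, Ccnh and Mnat1. All 10 were among the 12388 genes of the table and among the 12006 tested. The complex was looked at because Gtf2h5 had been among the few genes past the adjusted threshold in the same comparison of I/R with sham, so the complex was chosen by the measured fold change and p of Gtf2h5. Its difference is therefore given as a description with no test. The comparison sets Gtf2h5 beside its partners in the same libraries.

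The data came from 6 RNA-seq libraries of whole small intestine of C57BL/6 mice aged 8 weeks. Per the labels, 3 libraries belonged to the intestinal ischemia/reperfusion group (replicates 6, 7 and 9) and 3 to the sham group (replicates 1, 3 and 5). By the study's methods, blood flow through the superior mesenteric artery was blocked and then restored in I/R mice, and sham mice had the same surgery without occlusion. No gene was altered in either group. Nothing in the labels states that each library is a separate mouse, so errors and p-values cover only the spread among the 6 libraries, which may be technical. In whole tissue, fewer cells of a type and less RNA per cell cannot be told apart.

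TFIIH works in 2 processes. In transcription it opens promoter DNA for RNA polymerase II, and its kinase phosphorylates the tail of the polymerase. In nucleotide excision repair (NER) it opens DNA around a bulky lesion, so that the damaged strand can be cut out. A core holds the helicases and the structural subunits, and a CDK-activating kinase (CAK) module of Cdk7, cyclin H (Ccnh) and Mnat1 docks onto it. The CAK also phosphorylates the kinases that drive the cell cycle. In human, mutations of ERCC2, ERCC3 or GTF2H5 can cause trichothiodystrophy. These roles are known mainly from human and yeast proteins.

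Gtf2h5 encodes the smallest subunit, which binds Gtf2h4 and stabilises the complex. The gene lies on chromosome 17 at 6079786 to 6086517 on the plus strand (mm10). No annotated gene overlaps it. Both of its listed transcripts have 3 exons and carry the same open reading frame of 71 codons, or 216 bases with the stop. It is printed here because it shows how small the subunit is and because it is shared by every Gtf2h5 value below. The sequence was read from the GENCODE M21 transcripts, and capitals mark the start and the stop codon.
Gtf2h5 coding sequence: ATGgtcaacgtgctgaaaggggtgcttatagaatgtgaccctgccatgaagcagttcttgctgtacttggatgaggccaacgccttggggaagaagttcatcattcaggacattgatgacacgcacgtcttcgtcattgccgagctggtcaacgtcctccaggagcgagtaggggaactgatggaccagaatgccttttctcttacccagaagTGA

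In I/R replicates 6, 7 and 9 the level of Gtf2h5 was 14.3, 18.0 and 14.0 FPKM, against 2.60, 2.07 and 2.11 FPKM in sham replicates 1, 3 and 5. FPKM correct fragment numbers for the length of a transcript and the size of a library. A gene value is the sum over its listed transcripts. Every I/R library lay far above every sham library, and the sham libraries lay close together. The mean was 15.4 ± 2.24 FPKM in I/R and 2.26 ± 0.298 FPKM in sham (SD, n = 3 each), a ratio of means of 6.82. The log2 fold change (I/R minus sham, computed from log2(FPKM + 1) values) was 2.33 ± 0.20 (SE). The added 1 FPKM shrinks the change of low genes. Among the 12006 genes tested this was rank 26 from the highest. The place of Gtf2h5 past the adjusted threshold was lost on leaving out any 1 of the 6 libraries, where its log2 fold change was 2.22 to 2.40.

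Both listed transcripts had higher values in I/R. The longer, Gtf2h5-201 of 2245 bases, had 13.3, 15.0 and 11.7 FPKM in I/R replicates 6, 7 and 9, against 2.35, 1.76 and 1.93 FPKM in sham replicates 1, 3 and 5. The shorter, Gtf2h5-202 of 879 bases, was at 0.995, 2.96 and 2.26 FPKM in I/R and at 0.251, 0.303 and 0.174 FPKM in sham. Both sets of libraries were apart, with ratios of means of 6.61 and 8.54. No listed transcript averaged below 0.5 FPKM in both groups, and the shorter averaged 0.243 FPKM in sham. It was thus listed through its I/R values, and its ratio gives no support of its own. Neither transcript passed the adjusted threshold in a fit over all transcripts. The shorter transcript made up 6.97% to 16.5% of the Gtf2h5 FPKM in I/R and 8.27% to 14.7% in sham, so the division between the transcripts overlapped between the groups. The transcripts differ in their 3' untranslated region, of 1865 bases in the longer and 480 in the shorter. Their 5' untranslated regions differ as well, with 164 and 183 bases. No stretch of 50 bases of either transcript occurred in a transcript of another annotated gene. Another annotated transcript, a retained intron form, is not analysed here.

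**Figure D1:**
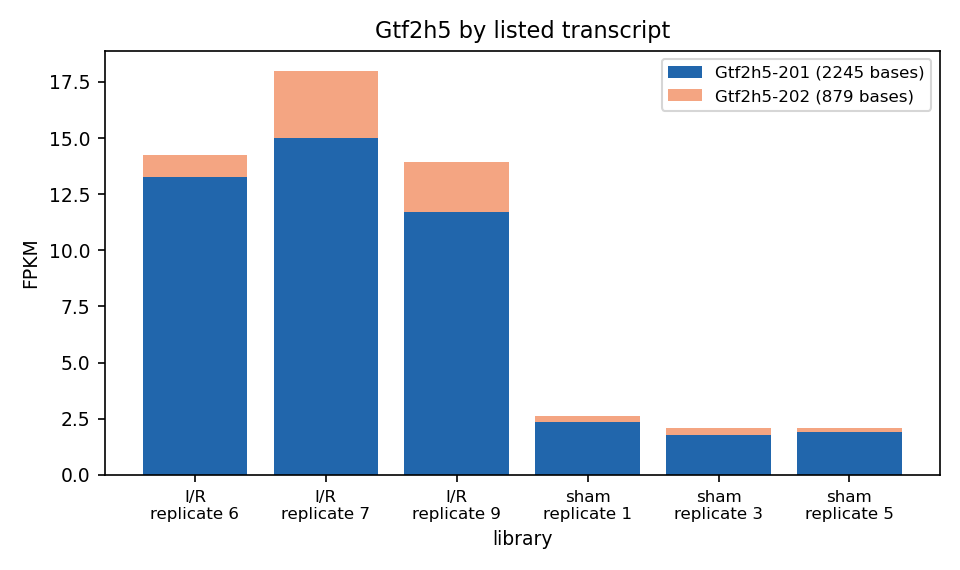
FPKM of the 2 listed Gtf2h5 transcripts, stacked, in each of the 6 libraries (x axis, I/R left of sham). The I/R bars reach 14.0 to 18.0 FPKM and the sham bars 2.07 to 2.60, and the longer transcript makes up most of every bar.

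Neither helicase of the core had groups that were apart. Ercc3 encodes XPB, a DNA translocase that opens promoter DNA, and lies on chromosome 18 (32240300 to 32270151, plus strand). It had 12.9, 11.6 and 15.1 FPKM in I/R replicates 6, 7 and 9, against 14.3, 12.9 and 11.3 FPKM in sham replicates 1, 3 and 5. The values of the groups were interleaved, and the log2 fold change was 0.03 ± 0.19 (SE). Ercc2 encodes XPD, the helicase that repair depends on, and lies on chromosome 7 (19382010 to 19395694, plus strand). It was at 5.85, 2.68 and 5.10 FPKM in I/R, against 5.06, 1.49 and 4.55 FPKM in sham. Each group had 1 low library, I/R replicate 7 and sham replicate 3, and the interval of the log2 fold change was wide (0.29, 95% interval -0.73 to 1.31). Without sham replicate 3 its log2 fold change turned to -0.12. Of the 50-base stretches of the Ercc2 transcript, 26.1% also occurred, in either orientation, in transcripts of Klc3 or Gm26852. Both genes lie on the opposite strand. The libraries were stranded, but whether strand was used in assigning reads is not known. The effect of this overlap on the level of Ercc2 was not tested.

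Besides Gtf2h5, Gtf2h1 was the structural subunit whose groups were apart. It encodes a subunit that contacts TFIIE and repair factors such as XPC, and lies on chromosome 7 (46796103 to 46823800, plus strand). Gtf2h1 had 20.3, 18.3 and 19.8 FPKM in I/R replicates 6, 7 and 9, against 15.4, 13.8 and 13.1 FPKM in sham replicates 1, 3 and 5. The lowest I/R library lay above the highest sham library, with means of 19.5 ± 1.03 and 14.1 ± 1.17 FPKM (SD, n = 3 each) and a log2 fold change of 0.44 ± 0.16 (SE). This missed the adjusted threshold (limma adjusted p = 0.535). Its main transcript, Gtf2h1-201, carried the difference at 18.8 ± 1.03 FPKM in I/R and 13.3 ± 1.30 FPKM in sham (SD, n = 3 each). A short form of 5 exons, Gtf2h1-205, was at 0.451 to 0.811 FPKM in I/R and 0.471 to 1.15 FPKM in sham.

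Gtf2h4, the partner of Gtf2h5 and the anchor of XPB in the complex, lies on chromosome 17 as well (35667730 to 35673739, minus strand). It had 6.27, 5.08 and 6.75 FPKM in I/R replicates 6, 7 and 9, against 3.91, 3.42 and 6.27 FPKM in sham replicates 1, 3 and 5. Sham replicate 5 lay among the I/R values, and the log2 fold change was 0.37 with a 95% interval of -0.25 to 0.99. Gtf2h2, which stimulates the XPD helicase, lies on chromosome 13 (100460218 to 100492579, minus strand). It was at 6.75, 5.95 and 4.59 FPKM in I/R, against 4.33, 3.36 and 4.81 FPKM in sham, with I/R replicate 9 inside the sham range. Gtf2h3, which binds Gtf2h2, lies on chromosome 5 (124579140 to 124597680, plus strand). It was at 5.97, 4.74 and 5.05 FPKM in I/R, against 5.34, 3.08 and 5.50 FPKM in sham. Its log2 fold change of 0.17 turned to -0.042 without sham replicate 3, the lowest library.

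In the CAK module the groups of the kinase overlapped and those of its cyclin did not. Cdk7 lies on chromosome 13 (100702631 to 100730939, minus strand). It had 3.20, 2.21 and 2.71 FPKM in I/R replicates 6, 7 and 9, against 2.55, 1.95 and 3.31 FPKM in sham replicates 1, 3 and 5, a log2 fold change of 0.05 ± 0.24 (SE). Ccnh, the cyclin of this kinase, lies on the same chromosome (85189408 to 85223469, plus strand). It was at 6.93, 7.38 and 7.16 FPKM in I/R, against 6.25, 3.88 and 5.81 FPKM in sham. The groups of Ccnh were apart, by 7.16 ± 0.223 FPKM in I/R to 5.31 ± 1.26 FPKM in sham (SD, n = 3 each), with a log2 fold change of 0.39 ± 0.22 (SE) that did not pass (limma adjusted p = 0.624). Ccnh overlaps Rasa1 on the opposite strand. Mnat1, the assembly factor that tethers the kinase to the core, lies on chromosome 12 (73123717 to 73273988, plus strand). It was at 4.31, 4.13 and 2.89 FPKM in I/R, against 3.97, 2.18 and 2.27 FPKM in sham, so the groups overlapped.

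**Figure D2:**
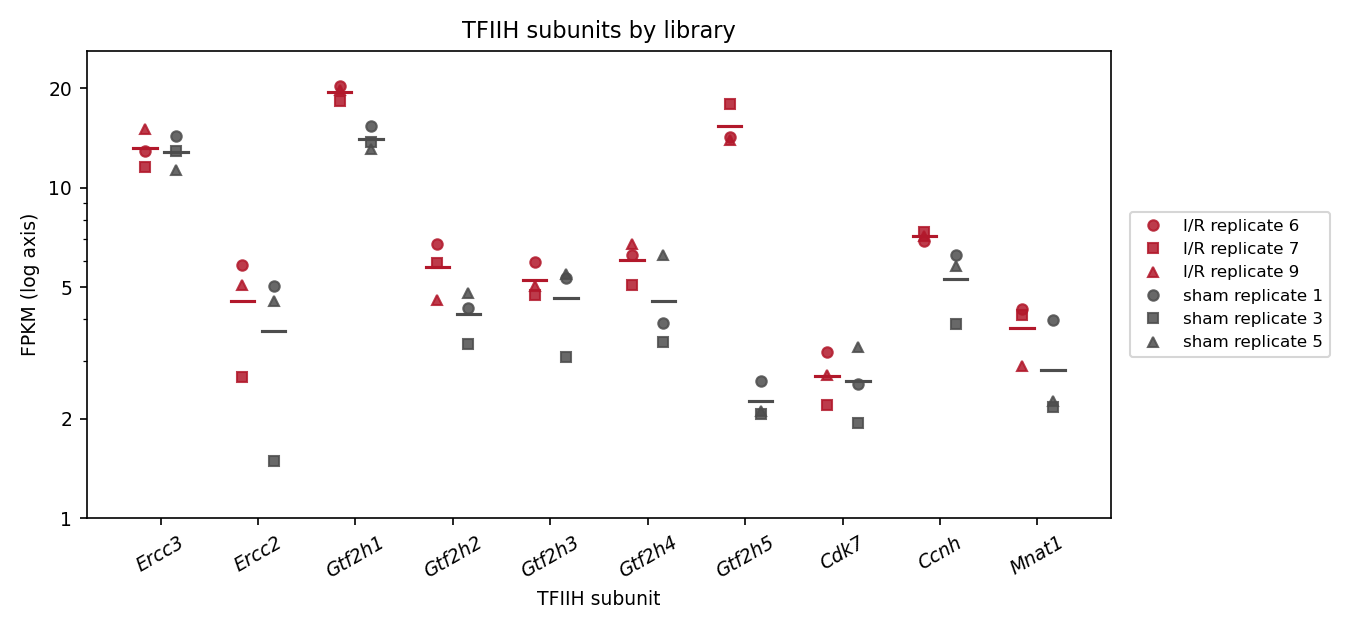
FPKM (log axis) of the 10 TFIIH subunits in each library, I/R left of sham for every gene, with a marker for each replicate and a short line at the group mean. Gtf2h5 is the one subunit with a wide gap, 14.0 to 18.0 FPKM in I/R against 2.07 to 2.60 in sham, and sham replicate 3 is the lowest of all 6 libraries in 7 of the other 9 subunits.

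Of the 10 subunits, 1 passed the adjusted threshold of 0.05, Gtf2h5, by whose call the complex was picked. With median-ratio scaling, quantile normalization or the most abundant transcript of each gene, 0 of the 10 passed. Over all genes tested, 0.0167% passed as higher and 0.0167% as lower. None of the other 9 passed, with limma adjusted p from 0.535 to 0.958, and 1 of them, Gtf2h1, had an unadjusted p below 0.05, as had 5.56% of all genes on the higher side and 3.38% on the lower. At a fold of at least 2 together with an unadjusted p below 0.05, 0 of the other 9 were called. Over all genes, 1.92% were called as higher and 0.975% as lower. Groups did not overlap, with I/R higher, in 2 of the other 9 (Gtf2h1 and Ccnh), against 10.6% of all genes. A higher mean log2 value in I/R was found in all 9, against 62.6% of all genes. After median-ratio scaling it was found in 7, against 50.9%, since Ercc3 (-0.10) and Cdk7 (-0.057) then turned. Gtf2h5 had the fold, groups apart and a higher mean too. Its fold and p chose the complex, so it is left out of these counts.

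The other 9 subunits had log2 fold changes from 0.03 to 0.44, with a median of 0.35, against a median of 0.12 over all genes tested. After median-ratio scaling the median was 0.24 for the 9 and 0.0072 for all genes. The upper ends of the 95% intervals of the 9 lay between 0.48 and 1.31. All of these intervals but that of Gtf2h1 (0.055 to 0.83) included 0, and none is adjusted for the number of genes. Small differences of those subunits could not be told from none with 3 libraries a group. Sham replicate 3, the lowest in 7 of the 9, also had the lowest median over all genes in the table, 2.50 on the log2(FPKM + 1) scale, against 2.68 and 2.87 in the other sham libraries and 2.74 to 2.95 in I/R. Its part in the median of the 9 was measured by leaving it out, which gave 0.22.

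**Figure D3:**
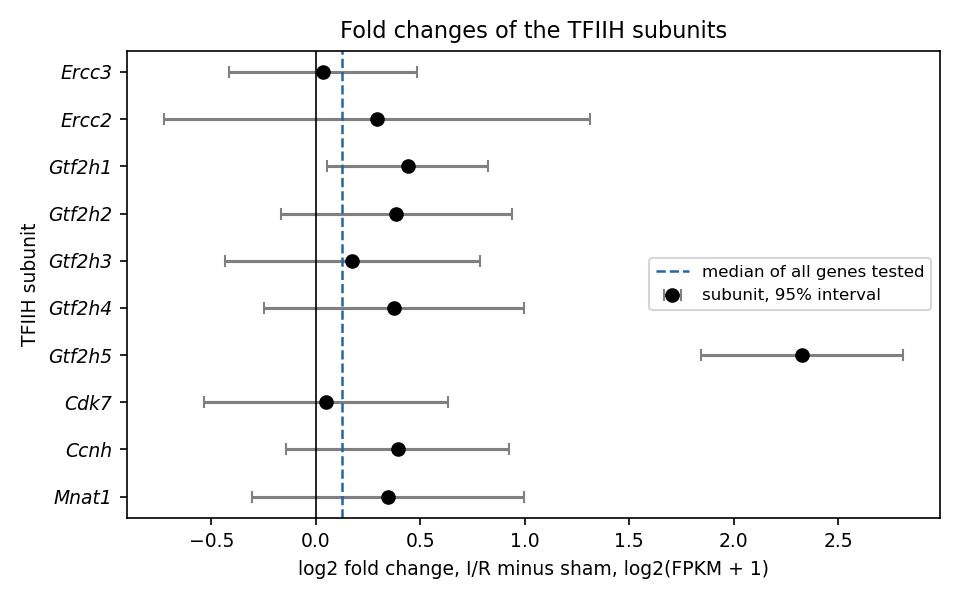
Log2 fold change of each TFIIH subunit (points) with its 95% interval (bars), as log2(FPKM + 1) in I/R minus sham, and the median of all genes tested as a dashed line at 0.12. Gtf2h5, by whose value the complex was chosen, lies at 2.33, and the points of the other 9 lie between 0.03 and 0.44.

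Relative to its partners, Gtf2h5 held a different rank in the groups. Its log2(FPKM + 1) minus the median of the other 9 subunits was 1.07, 1.64 and 1.29 in I/R replicates 6, 7 and 9, against -0.75, -0.51 and -1.06 in sham replicates 1, 3 and 5. Gtf2h5 thus stood above the typical subunit in every I/R library and below it in every sham library. It made up 16.4%, 22.5% and 16.8% of the summed FPKM of the complex in the I/R libraries, against 4.09%, 4.30% and 3.57% in the sham libraries. The sum of the other 9 reached 62.1 to 72.6 FPKM in I/R and 46.1 to 61.1 FPKM in sham.

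The order of the levels differed mainly by Gtf2h5. Each subunit has 1 or 2 listed transcripts, against 3 to 12 annotated ones. The order and the shares of the complex thus cover listed transcripts only. In I/R it ran Gtf2h1 (19.5 FPKM), Gtf2h5 (15.4), Ercc3 (13.2), Ccnh (7.16), Gtf2h4 (6.04), Gtf2h2 (5.76), Gtf2h3 (5.25), Ercc2 (4.54), Mnat1 (3.78) and Cdk7 (2.70). Gtf2h1 was clear of Gtf2h5, the ranges of Gtf2h5 and Ercc3 overlapped, Ercc3 was clear of Ccnh and Ccnh of Gtf2h4, and every later pair of neighbours overlapped. In sham it ran Gtf2h1 (14.1 FPKM), Ercc3 (12.9), Ccnh (5.31), Gtf2h3 (4.64), Gtf2h4 (4.54), Gtf2h2 (4.17), Ercc2 (3.70), Mnat1 (2.81), Cdk7 (2.60) and Gtf2h5 (2.26). There only Ercc3 and Ccnh were clear of each other among neighbours. Gtf2h5 was rank 2, 2 and 3 of the 10 in I/R replicates 6, 7 and 9, and rank 9, 8 and 10 in sham replicates 1, 3 and 5.

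Over the 6 libraries, log2(FPKM + 1) of the subunits followed that of Gtf2h5 to very unequal degrees. Pearson's r was 0.94 for Gtf2h1, 0.77 for Ccnh and 0.74 for Gtf2h2, and between 0.08 (Cdk7) and 0.62 (Mnat1) for the remaining 6. These values describe 6 libraries that share the group difference. Among 6673 genes of at least 5 FPKM (unnamed gene models, mitochondrial genes, histones and receptor segments left out) the pattern most like that of Gtf2h5 was that of Tubb4b, a beta-tubulin (r = 0.995). Fam133b, Sumo3, a ubiquitin-like modifier, Gnl2 and Zcchc9 came next (r = 0.983 to 0.988). Genes with the opposite pattern included Tmem243, the claudin Cldn3, Cpne3 and Chac1, an enzyme that degrades glutathione (r = -0.989 to -0.983).

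The genes next to Gtf2h5 did not share its difference. Serac1 starts 44 bases away on the opposite strand and had 1.00, 0.504 and 1.2 FPKM in I/R replicates 6, 7 and 9, against 0.792, 0.893 and 1.09 FPKM in sham replicates 1, 3 and 5. Its groups overlapped, with a log2 fold change of -0.03 (95% interval -0.60 to 0.54). Tulp4, 19919 bases downstream on the same strand, was at 4.17, 3.33 and 4.92 FPKM in I/R, against 6.85, 6.01 and 7.03 FPKM in sham. Every I/R value of Tulp4 lay below every sham value, but it did not pass (log2 fold change -0.58 ± 0.21 SE, limma adjusted p = 0.533).

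Gtf2h5 is shorter than the other subunits, which have 309 to 783 codons. Coding length was looked at after these values were seen. Of 369 tested genes with at most 100 codons, Gtf2h5 had the largest log2 fold change. The median of these genes was 0.15, and it was 0.20 in the next 1480 genes, of up to 200 codons, and 0.11 in the 2291 genes of more than 800. After median-ratio scaling these medians were 0.032, 0.070 and -0.0026. Gtf2h5 was picked for its high value, so its place among these genes is a description. The part of coding length in its difference was not tested.

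The other genes of the processes that TFIIH serves were then counted in 6 lists, none of which had a gene past the adjusted threshold. Of 11 genes that recognise DNA damage in NER, 8 had a higher mean in I/R, against 62.6% of all genes. Their median log2 fold change was 0.20. Elof1, an elongation factor of transcription-coupled repair, was at 7.49 ± 0.864 FPKM in I/R and 6.17 ± 0.208 FPKM in sham, and Rad23b, a partner of XPC, at 40.1 ± 1.5 and 34.3 ± 4.95 FPKM (SD, n = 3 each). Ddb1 and Xab2 had log2 fold changes of 0.25 and 0.20. Of 24 genes of verification, incision and resynthesis, 22 had a higher mean, against the same 62.6%, with a median of 0.31. Ercc1, a subunit of the nuclease that cuts 5' of the lesion, was at 6.70 ± 1.06 FPKM in I/R and 4.24 ± 1.2 FPKM in sham (SD, n = 3 each; limma adjusted p = 0.563). The smallest subunit of the single-strand binding protein RPA, Rpa3, was at 18.1, 18.0 and 18.4 FPKM in I/R, against 16.6, 8.12 and 11.4 FPKM in sham. Pole2 and Rpa2 had log2 fold changes of 0.57 and 0.45. Groups did not overlap, with I/R higher, in 1 of the 11 and 2 of the 24 genes, against 10.6% of all genes. After median-ratio scaling 8 of the 11 and 19 of the 24 had a higher mean, against 50.9% of all genes. The medians were then 0.073 and 0.19.

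Of 22 other general transcription factors, 14 (63.6%) had a higher mean, near the 62.6% of all genes, and 8 a lower one. Their median log2 fold change was 0.08. After median-ratio scaling 11 of the 22 had a higher mean, against 50.9% of all genes, and the median turned to -0.017. Gtf2b, the factor that bridges TBP and the polymerase, had 36.8, 40.4 and 30.8 FPKM in I/R replicates 6, 7 and 9, against 54.7, 56.6 and 54.4 FPKM in sham replicates 1, 3 and 5. All its I/R values lay below all its sham values (log2 fold change -0.61 ± 0.16 SE, limma adjusted p = 0.471). Gtf2a2, the small subunit of TFIIA, was at 25.2, 37.8 and 28.4 FPKM in I/R, against 13.6, 15.2 and 23.7 FPKM in sham. The TBP-associated factors Taf2 and Taf9 had log2 fold changes of 0.53 and 0.63, with groups apart as well. In all, groups did not overlap in 4 of the 22 with I/R higher and in 2 with I/R lower, against 10.6% and 5.89% of all genes.

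Of 12 subunits of RNA polymerase II, 11 had a higher mean in I/R, against 62.6% of all genes, with a median log2 fold change of 0.33. In 5 of the 12 the groups did not overlap, with I/R higher, against 10.6% of all genes. Polr2l, one of its smallest subunits with 67 codons, was at 12.7, 12.9 and 11.5 FPKM in I/R, against 7.68, 5.89 and 7.62 FPKM in sham (log2 fold change 0.74, limma adjusted p = 0.467). Polr2i and Polr2d had log2 fold changes of 0.50 and 0.65. Polr2a, the catalytic subunit whose tail TFIIH phosphorylates, was the exception at 15.4, 12.1 and 10.5 FPKM in I/R, against 21.2, 16.3 and 14.6 FPKM in sham, with overlapping groups. After median-ratio scaling 10 of the 12 had a higher mean, against 50.9% of all genes.

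Of 21 other transcriptional kinases, cyclins and elongation factors, 14 (66.7%) had a higher mean, near the 62.6% of all genes. Their median was 0.08. After median-ratio scaling 9 of the 21 had a higher mean, against 50.9% of all genes, and the median turned to -0.045. Nelfa, of the pausing factor NELF, was at 8.24 ± 0.431 FPKM in I/R and 6.44 ± 1.18 FPKM in sham, and Supt5, its partner in pausing, at 20.6 ± 2.20 and 17.1 ± 2.75 FPKM (SD, n = 3 each). Cdk9, the elongation kinase, was at 22.6, 8.80 and 7.67 FPKM in I/R, against 12.1, 25.4 and 24.0 FPKM in sham, so that each group held high and low libraries. Larp7 had a log2 fold change of 0.30. The furthest value of this list, chosen after it was seen, was that of Hexim1, an inhibitor of Cdk9, at -1.41 (limma adjusted p = 0.687). Of 12 cell cycle kinases and cyclins fed by the CAK, 11 had a higher mean, against 62.6% of all genes. Cdk1 was at 14.5, 13.8 and 14.5 FPKM in I/R, against 8.99, 4.09 and 10.7 FPKM in sham, and the groups of Ccnb1 and Ccnb2 did not overlap either. These 3 of the 12 stand against 10.6% of all genes. Their log2 fold changes were 0.86, 0.78 and 0.52, none of which passed (limma adjusted p from 0.541 to 0.563). Cdk6 had a log2 fold change of 0.60. After median-ratio scaling 7 of the 12 (58.3%) had a higher mean, against 50.9% of all genes.

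**Figure D4:**
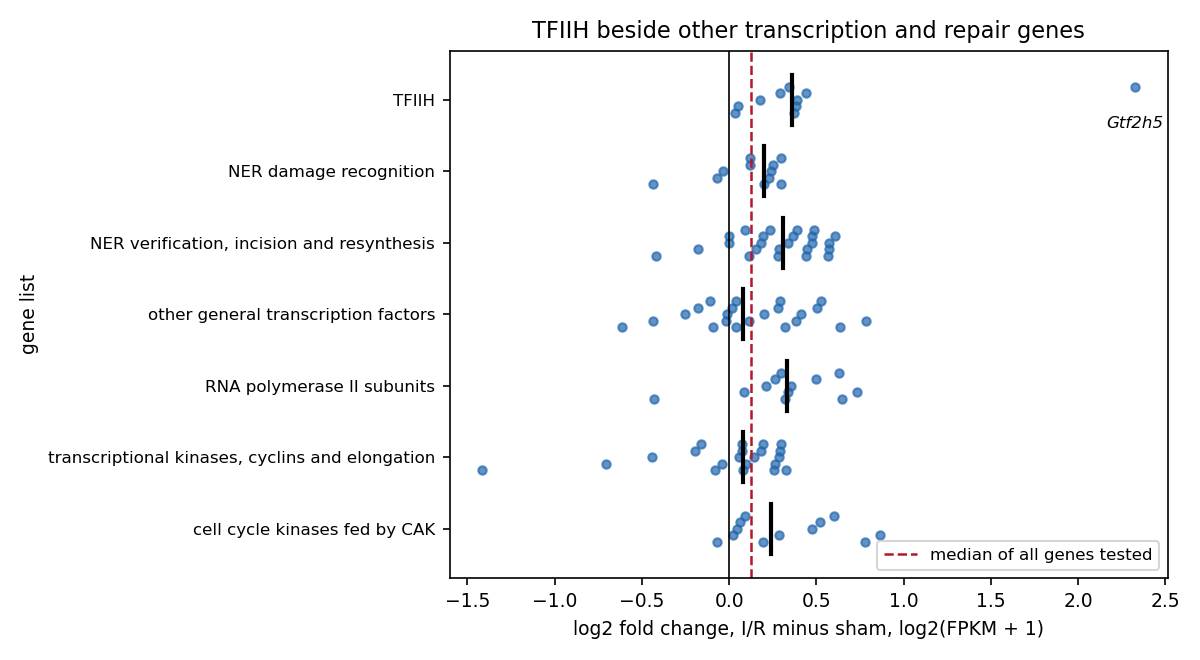
Log2 fold changes (I/R minus sham, log2(FPKM + 1)) of the TFIIH subunits and of the 6 lists of other transcription and repair genes, 1 point a gene, with a bar at each list's median and a dashed line at the median of all genes tested (0.12). Gtf2h5 stands alone at 2.33, and the highest gene of the 6 lists, Cdk1, lies at 0.86.

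The tissue was checked against its markers. All 8 markers of small intestinal epithelium were listed, with a summed level of 6732 to 11160 FPKM in the I/R group and 7684 to 16405 FPKM in the sham group. The 4 neutrophil markers summed to 7.04 to 19.7 FPKM in I/R and 0.934 to 4.22 FPKM in sham, and the sums did not overlap. Groups were apart, with I/R higher, in 3 of the 4, against 10.6% of all genes, and those of Csf3r overlapped. S100a8 was at 0 in all 3 sham libraries, and Csf3r averaged 0.316 FPKM in sham. Both were thus listed through their I/R values, and their direction gives no support of its own. The 3 T and NK markers summed to 63.2 to 88.7 FPKM in I/R and 110.0 to 148 FPKM in sham, again without overlap. Most of this sum was Gzma, at 51.5 to 77.4 FPKM in I/R and 96.0 to 121 FPKM in sham. The groups of Cd3g and Cd3e overlapped. Groups were thus apart, with I/R lower, in 1 of the 3, against 5.89% of all genes. The 3 goblet markers all had a lower mean in I/R, with a median log2 fold change of -1.07, but their sums overlapped. Of the 5 markers of stem and dividing cells, the dividing-cell genes Cdk1, Top2a and Mki67 had groups apart, with I/R higher. These 3 of the 5 stand against 10.6% of all genes. The groups of the stem cell markers Lgr5 (log2 fold change -0.077) and Olfm4 overlapped. Top2a was at 26.6 to 27.9 FPKM in I/R and 10.7 to 21.8 FPKM in sham, and Mki67 at 17.3 to 19.0 FPKM in I/R and 7.34 to 15.0 FPKM in sham. The sum of the 5 overlapped, at 102 to 135 FPKM in I/R and 48.3 to 158 FPKM in sham, with Olfm4 at 110.5 FPKM in sham replicate 5. The 2 distal markers, Fabp6 and Slc10a2, summed to 7.58 FPKM in I/R replicate 9 and to 992 to 5431 FPKM in the other 5 libraries. The 4 smooth muscle markers summed to 22.6 FPKM in I/R replicate 9, against 602 and 556 FPKM in I/R replicates 6 and 7. In sham they summed to 94.3 to 435 FPKM. The part of neutrophil, T and NK, goblet, dividing-cell and smooth muscle content in the difference of Gtf2h5 and in the lists was not tested. Nor was that of the gut segment sampled.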

How the data were processed

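The data are RNA-seq of 6 samples of mouse small intestine, 3 I/R and 3 sham. Libraries were stranded, from Trizol RNA. The authors deposited FPKM for 19763 transcripts. The submitters' notes name cutadapt, HISAT2 2.0.4, StringTie and mm10, without their roles, and the annotation is not given in the sources used here. On testing, no listed transcript averaged below 0.5 FPKM in both groups. FPKM keep no read counts, so depth is unknown and no counting interval is given. An exact 0 can be a failed estimate.

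Identifiers were matched without version to GENCODE M21 (19702 matched, 61 kept their own), and FPKM were summed per gene, giving 12388 genes. The 12006 genes averaging 0.5 FPKM or more went into limma 3.58.1 (R 4.3.3; eBayes with trend), on log2(FPKM + 1), with Benjamini-Hochberg adjustment. The study's RNA-seq methods refer to R without naming a test. Its statistics section names an unpaired Student's t test for a pair of groups. The rule of a fold of at least 2 with p below 0.05 is the one it gave for its Caco-2 RNA-seq. The procedure was also run on simulated data with independent errors. That run held none of the shared library and tissue differences seen here, so it does not cover them. The subunits, lists and the rule for named genes (every subunit, up to 4 genes of each list by smallest p, the genes beside Gtf2h5, and the 5 most and least like it) were chosen with earlier results of these data known. A gene that this rule names is not reported here. Alternatives were pseudocounts, filters, scalings, no trend, single transcripts and leaving out each library.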

Additional observations from a re-analysis of the deposited data

How the results depend on the processing

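The log2 fold change of Gtf2h5 stayed between 2.19 and 2.71 in all 15 alternatives, but its place past the adjusted threshold held in 5 of them (both pseudocounts, no filter, a minimum of 5 FPKM, no trend) and was lost in 10. Its rank by log2 fold change was 114 with a pseudocount of 0.1. The count of subunits past the threshold was 0 with median-ratio scaling, quantile normalization, the most abundant transcript of each gene and each transcript on its own, and 0 to 0 with 1 library left out. Over all genes, 2 higher and 2 lower became 0 higher with median-ratio scaling, 1 higher with quantile normalization or the most abundant transcript, 1 lower at a mean of at least 5 FPKM and 4 lower with each transcript on its own. Leaving out 1 library gave 0 to 4 higher and 0 to 5 lower genes. These calls rest on 3 libraries a group, and fits with fewer samples have less to test with.

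None of the other 9 subunits passed in any alternative (lowest limma adjusted p = 0.345), and 0 genes of the 6 lists did. Values near 0 changed sign. Cdk7 was at -0.057 with median-ratio scaling and -0.14 with quantile normalization, and -0.088 to 0.19 with 1 library left out. Ercc3 was at -0.10 and -0.051 with these scalings, and -0.058 to 0.12 with 1 library left out. With 1 library left out Ercc2 ran from -0.12 to 0.56 and Gtf2h3 from -0.042 to 0.29, the negative values without sham replicate 3. The number of subunits with a higher mean, Gtf2h5 included, was 5 at a mean of at least 5 FPKM, where 5 were left to test. It was 7 to 10 with 1 library left out. The median of the other 9 was 0.16 to 0.44 in all alternatives. Gtf2h5 minus that median was 1.86 to 2.11 with 1 library left out and 2.27 with a pseudocount of 0.1. Groups of Ccnh overlapped with quantile normalization and for its most abundant transcript. No paired analysis was possible because the groups share no replicate number. The FPKM carry no depth, so how far low values such as Cdk7 are limited by counting is unknown.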

Other observations

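Ccnh was listed as 2 transcripts whose balance differed between libraries within each group. The shorter, Ccnh-202 of 1055 bases, made up 4.55% of the Ccnh FPKM in I/R replicate 6 and 6.48% in sham replicate 1, but 31.8% and 26.6% in I/R replicates 7 and 9 and 25.6% and 27.7% in sham replicates 3 and 5. The longer, Ccnh-201 of 2045 bases, had 6.61, 5.03 and 5.26 FPKM in I/R replicates 6, 7 and 9, against 5.84, 2.88 and 4.19 FPKM in sham replicates 1, 3 and 5, so its groups overlapped although the sums of both transcripts did not. I/R replicate 6 and sham replicate 1 thus stood apart from the other 4 libraries in this balance, whatever their group.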
